A study of Homo sapiens with 9 samples.

Results

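BAP1 and 9 genes whose proteins are known to join it in a complex were described here across U2OS cells, an established human osteosarcoma line, with and without depletion of BAP1. The 10 genes, BAP1, HCFC1, HCFC2, YY1, OGT, ASXL1, ASXL2, FOXK1, FOXK2 and KDM1B, were chosen by name, and every probe set of each was read. They are 10 of 19776 genes, which are BAP1 and the genes that the array's annotation pairs singly with a probe set. They gave 43 probe sets of the 54675 in the table of values. The study hybridised 9 arrays, 3 from cells carrying the first short hairpin RNA plasmid against BAP1 (shBAP1 #1), 3 from cells carrying the second (shBAP1 #2) and 3 from cells carrying a plasmid with a non-targeting hairpin (shControl). All 9 samples shared Lipofectamine transfection, puromycin selection and a thymidine double block, which arrests cells as they enter S phase. The labels do not state that the replicates of a group were separate cultures, so each p-value rests only on how these 9 samples vary, and that variation may be technical.

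BAP1 is a nuclear deubiquitinase that removes ubiquitin from histone H2A, and it is a tumour suppressor lost in mesothelioma and uveal melanoma. It works in a complex with an ASXL protein, which activates the enzyme, with host cell factor (HCFC1), a chromatin scaffold for many transcription factors, and with OGT, the enzyme that adds N-acetylglucosamine to nuclear proteins and is needed for the maturation of host cell factor. YY1 and the forkhead proteins FOXK1 and FOXK2 bind DNA and are known to bring the complex to its genes.

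Values are log2 expression values. A change is shBAP1 minus shControl on that scale, and a probe set is called changed where limma's adjusted p was below 0.05 over all 54675 probe sets. The arrays had like distributions, with medians between 5.40 and 5.45, and correlations of 0.995 to 0.997 within a group. The difference between the 3′ and 5′ actin control probe sets, a measure of RNA integrity, lay between 0.39 and 0.41 with shBAP1 #1 and between 0.39 and 0.46 with shBAP1 #2, against 0.47 to 0.51 in shControl. The shBAP1 and shControl arrays did not overlap in it, and its part in the results was not tested. The same difference for GAPDH did overlap, at -0.05 to -0.03 with shBAP1 #1 and -0.04 to -0.03 with shBAP1 #2, against -0.06 to -0.02 in shControl. Of 8 mesenchymal and osteoblast markers measured, 5 lay above the typical level on the array (5.44, the median over probe set means), led by VIM at 14.1, SPARC at 12.7 and COL1A1 at 11.5. ALPL at 4.86, COL1A2 at 4.53 and TWIST1 at 3.25 lay below it. Of the epithelial, blood and neural markers, EPCAM at 6.17, HBB at 5.86 and SYP at 5.98 lay above it.

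BAP1 was read by probe set 201419_at. The annotation did not list this probe set, and no row of it held BAP1 alone or with another gene. The 5 rows whose symbols contain those letters belong to other genes, such as HSPBAP1 and UBAP1. The assignment therefore rests on general knowledge of the array's design and not on a table used here or on the measured values. The other 42 probe sets came from rows with a single symbol. BAP1 lies on chromosome 3 (GRCh38.p14, chr3:52401008-52410008).

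The BAP1 probe set was lower with either hairpin plasmid, at about 33 to 35% of shControl. It stood at 6.05, 6.36 and 6.51 with shBAP1 #1 and at 6.56, 6.18 and 5.98 with shBAP1 #2, against 7.72, 7.94 and 7.85 in shControl. Every shBAP1 array lay below every shControl array, and the arrays of the shBAP1 groups overlapped one another. The means were 6.31 ± 0.24 with shBAP1 #1 and 6.24 ± 0.29 with shBAP1 #2, against 7.84 ± 0.11 in shControl (SD, n = 3 each). BAP1 fell by 1.53 on the log2 scale with shBAP1 #1 (95% interval -1.87 to -1.19, limma adjusted p = 7.94e-05), to 34.6% of shControl. With shBAP1 #2 it fell by 1.60 (95% interval -1.93 to -1.26, limma adjusted p = 4.98e-05), to 33.1% of shControl. The difference between the hairpins, shBAP1 #2 minus shBAP1 #1, was -0.07 with a 95% interval of -0.40 to 0.27. On RNA from a whole culture, a loss of transcript in every cell and a larger loss in some cells cannot be told apart.

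Among all 43 probe sets, 8 were higher and 5 lower with shBAP1 #1, where 8.98% of all probe sets on the array were higher and 8.76% lower. With shBAP1 #2, 9 were higher and 7 lower, against 12.6% higher and 11.5% lower of all probe sets. In either direction 30.2% of the 43 were called with shBAP1 #1 and 37.2% with shBAP1 #2, against 17.7% and 24.1% of all probe sets. The 43 include BAP1, the target of the hairpins, and the shares were 28.6% and 35.7% of the 42 partner probe sets. The 2 comparisons share the shControl arrays, and probe sets of 1 gene are not independent. For the mean of both hairpins against shControl, 12 were higher and 8 lower, against 9.97% and 9.97% of all probe sets. The count for the mean of both fell to 13 in all without shControl replicate 1, and also without shControl replicate 3. A call for the mean can rest on 1 hairpin, as for KDM1B 227021_at, at -0.30 with shBAP1 #1 and 1.45 with shBAP1 #2. Called in the same direction with each hairpin were 4 higher and 2 lower, BAP1 among the lower. The share of all probe sets called in the same direction with each is not given. The median change over the 43 was -0.01 with shBAP1 #1 and 0.03 with shBAP1 #2, beside 0.01 and 0.02 over all probe sets. Of the 43, 36 reached the typical level of 5.44 and 7 were dimmer. The shares of all probe sets cover dim and bright ones alike. The 43 and the array are thus unlike in brightness, and the part of this in the higher shares called was not tested. HCFC1 and FOXK1 had no call against shControl with either hairpin.

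**Figure D1:**
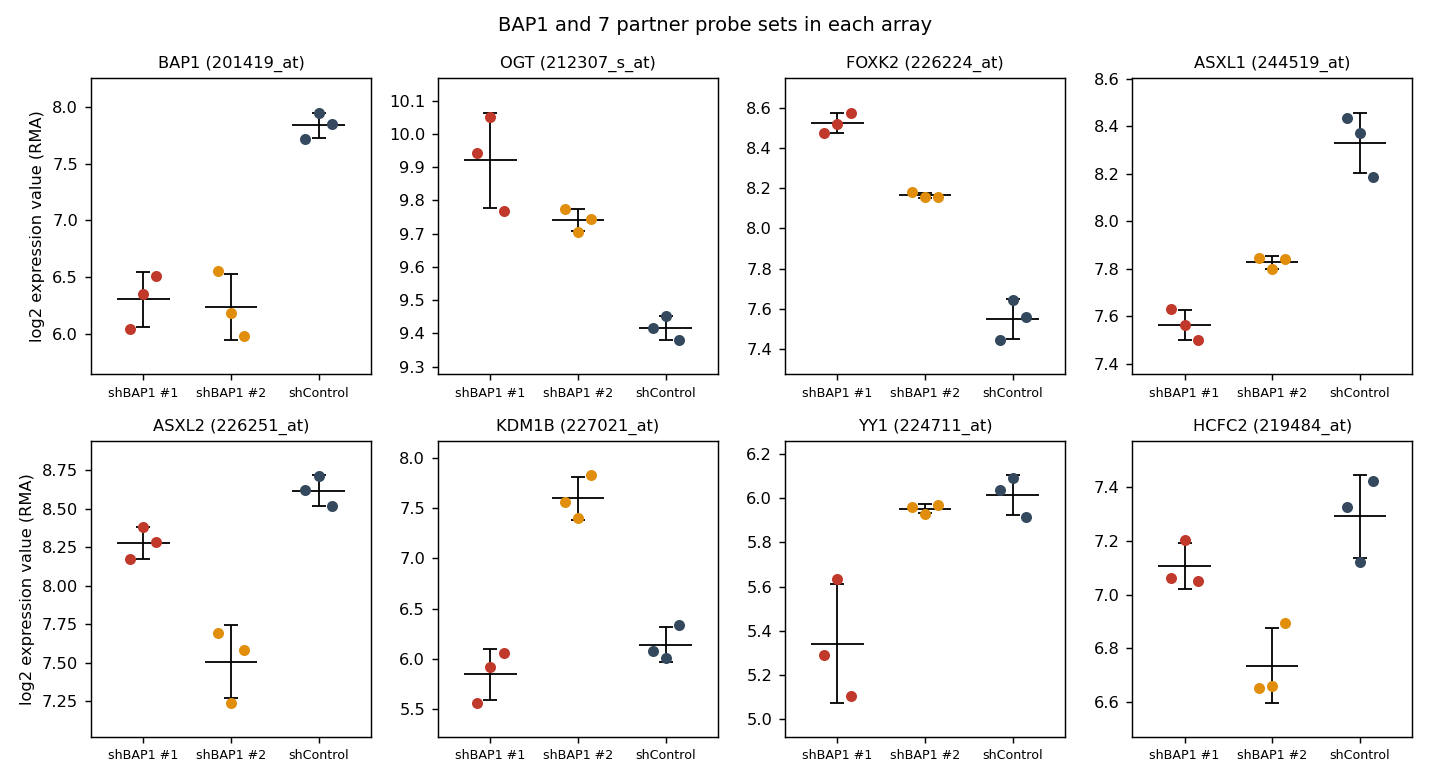
Log2 expression values (y axis, a separate range in each panel) of BAP1 and of 7 partners, each by the probe set with the smallest p for either hairpin, on every array, with the 3 groups on the x axis; lines and bars are means ± SD (n = 3). BAP1, OGT, FOXK2, ASXL1 and ASXL2 shBAP1 arrays stand clear of shControl with both hairpins, KDM1B and HCFC2 with shBAP1 #2 alone, and YY1 with shBAP1 #1 alone. The choice by p favours such separation. The ASXL2 probe set shown, 226251_at, was not called with shBAP1 #1 (limma adjusted p = 0.0695), and other ASXL1 and ASXL2 probe sets differ.

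**Figure D2:**
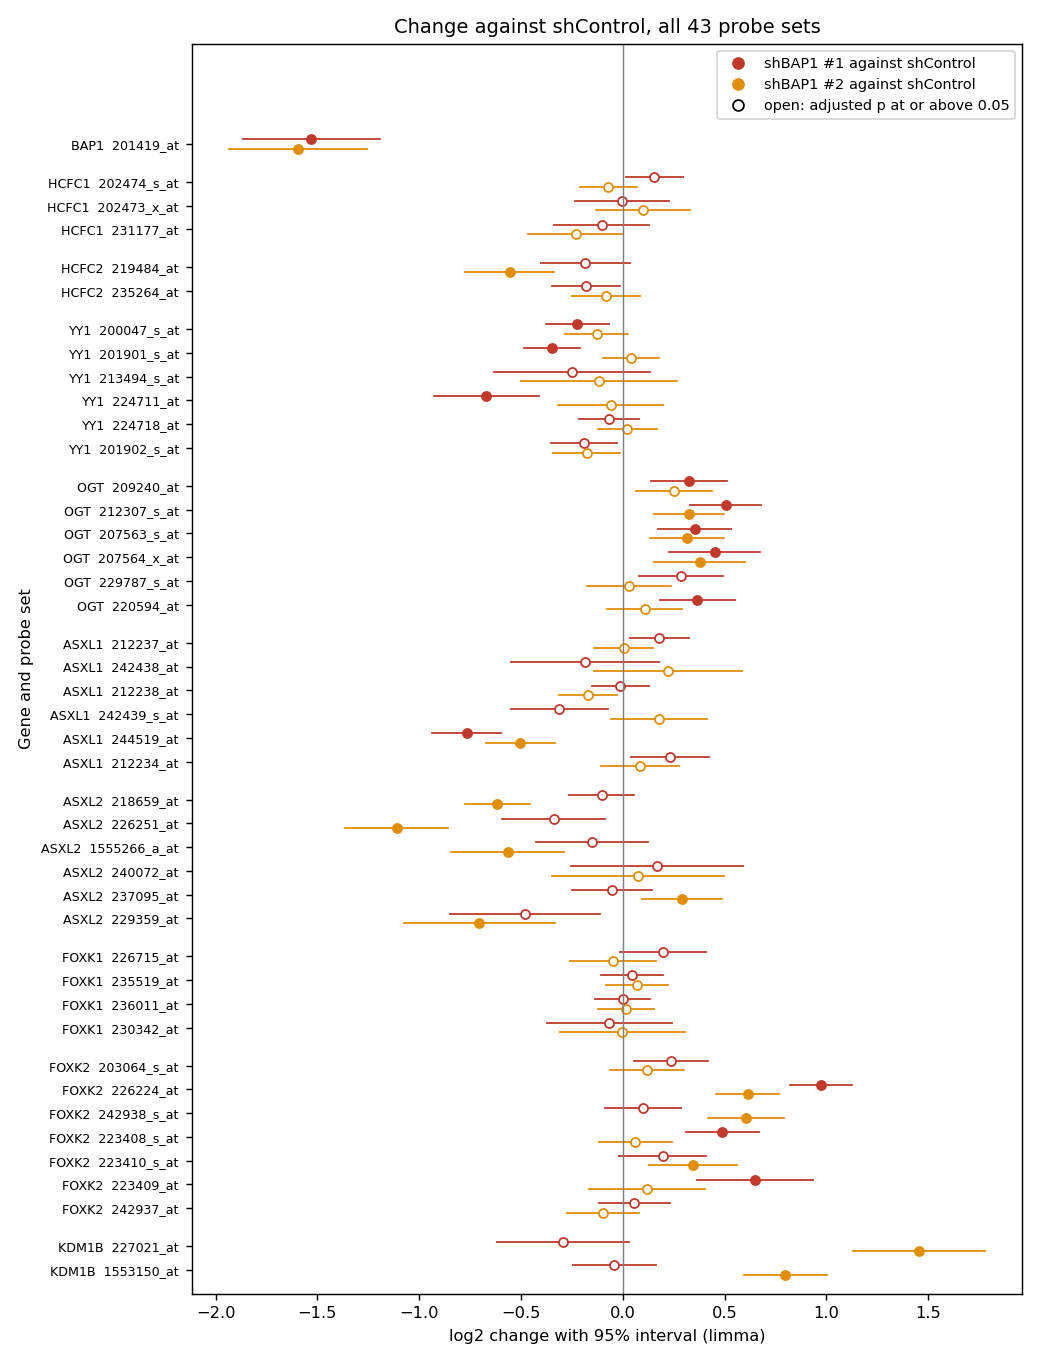
Log2 change against shControl (x axis) of each of the 43 probe sets with its 95% interval, red for shBAP1 #1 and orange for shBAP1 #2; open points had a limma adjusted p at or above 0.05. BAP1 lies near -1.5 with both, and the KDM1B probe sets reach 1.45 and 0.80 with shBAP1 #2.

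ASXL1 and ASXL2 are the additional sex combs proteins that activate BAP1. ASXL2 was lower with shBAP1 #2 by 4 of its 6 probe sets, and ASXL1 was lower by 1 of its 6 with each hairpin. For ASXL2, 218659_at, its brightest probe set, stood at 10.68, 10.64 and 10.58 with shBAP1 #1 and at 10.10, 10.07 and 10.19 with shBAP1 #2, against 10.76, 10.81 and 10.64 in shControl. The shBAP1 #2 arrays lay below all others, while those of shBAP1 #1 overlapped shControl. This probe set fell by 0.62 ± 0.07 (SE) with shBAP1 #2 (limma adjusted p = 0.000157), and its change with shBAP1 #1 was -0.10 (limma adjusted p = 0.435).

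A second ASXL2 probe set, 226251_at, stood at 8.17, 8.38 and 8.28 with shBAP1 #1 and at 7.69, 7.24 and 7.59 with shBAP1 #2, against 8.62, 8.71 and 8.51 in shControl. Its 3 groups did not overlap. It fell by 1.11 ± 0.11 with shBAP1 #2 (limma adjusted p = 7.42e-05), to 46.3% of shControl, while its change of -0.34 with shBAP1 #1 did not pass the test (limma adjusted p = 0.0695). The probe set 1555266_a_at fell by 0.57 and the dim 229359_at by 0.70 with shBAP1 #2 (limma adjusted p = 0.00679 and 0.01). Against these, 237095_at was higher by 0.29 with shBAP1 #2 (limma adjusted p = 0.0362), a call lost without shBAP1 #2 replicate 1, 2 or 3 or without shControl replicate 2 or 3, where its change was 0.22 to 0.33 and its limma adjusted p 0.0502 to 0.135. The sixth, 240072_at, was not called, at 0.17 and 0.08.

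ASXL1 was split among its probe sets. The probe set 244519_at stood at 7.63, 7.56 and 7.50 with shBAP1 #1 and at 7.85, 7.80 and 7.84 with shBAP1 #2, against 8.43, 8.37 and 8.19 in shControl. All 3 groups were separate, with shBAP1 #1 lowest. It fell by 0.77 with shBAP1 #1 (limma adjusted p = 8.26e-05) and by 0.50 with shBAP1 #2 (limma adjusted p = 0.000767). The other 5 ASXL1 probe sets had no call, with changes from -0.31 to 0.23 with shBAP1 #1 and from -0.17 to 0.22 with shBAP1 #2. The brightest of them, 212237_at, had changes of 0.18 and 0.00. The files do not say which ASXL1 or ASXL2 transcripts each probe set reads.

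OGT, the glycosyltransferase of the complex, was higher. All 6 of its probe sets had positive changes with each hairpin, and 5 were called higher with shBAP1 #1 and 3 with shBAP1 #2. The probe set 212307_s_at stood at 9.94, 10.05 and 9.77 with shBAP1 #1 and at 9.77, 9.71 and 9.74 with shBAP1 #2, against 9.42, 9.45 and 9.38 in shControl. Every shBAP1 array lay above every shControl array. It was higher by 0.51 ± 0.08 with shBAP1 #1, or 1.42-fold (limma adjusted p = 0.00113), and by 0.33 ± 0.08 with shBAP1 #2, or 1.25-fold (limma adjusted p = 0.0112).

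The brightest OGT probe set, 209240_at, stood at 10.02, 10.13 and 9.91 with shBAP1 #1 and at 9.91, 9.93 and 10.00 with shBAP1 #2, against 9.76, 9.79 and 9.55 in shControl. Here too every shBAP1 array lay above every shControl array, by a smaller margin. Its changes were 0.32 (limma adjusted p = 0.0215) and 0.25 (limma adjusted p = 0.055). The probe sets 207563_s_at and 207564_x_at were higher by 0.35 and 0.45 with shBAP1 #1 (limma adjusted p = 0.012 and 0.00957) and by 0.31 and 0.38 with shBAP1 #2 (limma adjusted p = 0.0164 and 0.0187). The dimmer 220594_at was higher by 0.37 with shBAP1 #1 alone (limma adjusted p = 0.0105), with 0.11 under shBAP1 #2, and 229787_s_at had 0.29 and 0.03 with no call.

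Several OGT calls turned on single arrays. The call of 209240_at with shBAP1 #1 was lost without shBAP1 #1 replicate 1 or 2 or shControl replicate 3 (changes of 0.25 to 0.32, limma adjusted p = 0.0639 to 0.0876). That of 207563_s_at with shBAP1 #1 was lost without shBAP1 #1 replicate 2 (0.29, limma adjusted p = 0.0515). With shBAP1 #2, 207563_s_at lost its call without shBAP1 #2 replicate 2 or 3 or shControl replicate 3 (0.27 to 0.31, limma adjusted p = 0.053 to 0.0676), and 207564_x_at without shBAP1 #2 replicate 3 or shControl replicate 1 or 3 (0.28 to 0.38, limma adjusted p = 0.0529 to 0.0774). The call of 212307_s_at was kept with both hairpins in each of the 9 fits that left out 1 array.

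FOXK2, a forkhead protein that recruits BAP1 to DNA, was higher by 3 of its 7 probe sets with each hairpin, while none of the 4 probe sets of its relative FOXK1 was called. The FOXK2 probe set 226224_at stood at 8.48, 8.52 and 8.58 with shBAP1 #1 and at 8.18, 8.16 and 8.16 with shBAP1 #2, against 7.45, 7.65 and 7.56 in shControl. The groups were separate, with shBAP1 #1 highest and shControl lowest. It was 1.96-fold higher with shBAP1 #1 (change 0.97 ± 0.07, limma adjusted p = 1.8e-05) and 1.53-fold higher with shBAP1 #2 (change 0.61 ± 0.07, limma adjusted p = 0.000128).

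The other FOXK2 probe sets differed in the hairpin with which they changed. The probe set 242938_s_at stood at 6.75, 6.72 and 6.82 with shBAP1 #1 and at 7.31, 7.33 and 7.18 with shBAP1 #2, against 6.64, 6.54 and 6.82 in shControl. Only the shBAP1 #2 arrays were apart from shControl, with a change of 0.61 (limma adjusted p = 0.000431) beside 0.10 with shBAP1 #1. In contrast, 223408_s_at and 223409_at were higher with shBAP1 #1, by 0.49 and 0.65 (limma adjusted p = 0.00165 and 0.00498), and had 0.06 and 0.12 with shBAP1 #2. The probe set 223410_s_at had 0.19 with shBAP1 #1 and was higher by 0.34 with shBAP1 #2 (limma adjusted p = 0.0251), a call lost without shBAP1 #2 replicate 2 or 3 or shControl replicate 1 or 3 (0.29 to 0.32, limma adjusted p = 0.0756 to 0.103). The brightest, 203064_s_at, was not called, with changes of 0.24 (limma adjusted p = 0.0747) and 0.12, nor was the dim 242937_at, with 0.06 and -0.10.

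The brightest FOXK1 probe set, 226715_at, stood at 9.63, 9.48 and 9.82 with shBAP1 #1 and at 9.40, 9.37 and 9.41 with shBAP1 #2, against 9.41, 9.33 and 9.58 in shControl. The groups overlapped. Its change was 0.20 (95% interval -0.02 to 0.41) with shBAP1 #1 and -0.05 (95% interval -0.26 to 0.16) with shBAP1 #2. Changes of the other 3 lay between -0.07 and 0.07.

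YY1, a zinc finger factor that can activate or repress its target genes, was lower with shBAP1 #1 by 3 of its 6 probe sets and was not called with shBAP1 #2. The probe set 201901_s_at stood at 10.24, 10.34 and 10.29 with shBAP1 #1 and at 10.68, 10.68 and 10.68 with shBAP1 #2, against 10.60, 10.70 and 10.62 in shControl. The shBAP1 #1 arrays lay below all others, and shBAP1 #2 fell within the range of shControl. It fell by 0.35 ± 0.06 with shBAP1 #1 (limma adjusted p = 0.0028) and had a change of 0.04 with shBAP1 #2 (limma adjusted p = 0.721).

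The dimmer YY1 probe set 224711_at stood at 5.29, 5.63 and 5.10 with shBAP1 #1 and at 5.96, 5.93 and 5.97 with shBAP1 #2, against 6.04, 6.09 and 5.91 in shControl. Again the shBAP1 #1 arrays were the lowest, and it fell by 0.67 (limma adjusted p = 0.00225), beside a change of -0.06 with shBAP1 #2. The brightest YY1 probe set, 200047_s_at, had changes of -0.22 (limma adjusted p = 0.0488) and -0.13. That call was lost when any one of the 9 arrays was left out, with changes of -0.25 to -0.18 and limma adjusted p of 0.0501 to 0.167. The remaining 3 probe sets, 213494_s_at, 224718_at and 201902_s_at, were not called, with changes between -0.25 and 0.02.

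Promoter windows of the members were read for the letters that YY1 is known to bind, since YY1 is a member itself; these letters were chosen with the values known. RefSeq windows (GRCh38.p14, 250 bases before to 50 after a start site) were at hand for 8 of the 10 genes, 11 windows in all, with none used for BAP1 and HCFC1. GCCATNTT, on either strand, occurred in windows of 4 of the 8 genes (HCFC2, ASXL1, ASXL2 and FOXK1), and in those of 7.97% of the 27305 genes with a window. The stretches that hold it are printed on the strand of the gene, 5′ to 3′, with the match in capitals (AANATGGC is its reverse complement). They are shown so that the letters around each match can be compared. Of these genes, FOXK1 had no call against shControl, and ASXL1 had 1 of 6 probe sets lower with each hairpin. The ASXL2 and HCFC2 calls were with shBAP1 #2. Whether YY1 had a part in these changes was not tested.
HCFC2 (chr12:104064548-104064575, plus strand): gggggttgggAAGATGGCggctcccagc
ASXL1 (chr20:32358201-32358228, plus strand): gcttcacgcgGCCATATTcttccggagc
ASXL1 (chr20:32358937-32358964, plus strand): agggggcgggGCCATCTTcctttaagaa
ASXL2 (chr2:25878438-25878465, minus strand): tacagtaagaacccAATATGGCagcggc
FOXK1 (chr7:4682296-4682323, plus strand): gagccgcgcgAACATGGCcgaagtcggc
The HCFC2, ASXL2 and FOXK1 matches begin at bases 28, 37 and 12 after the start site, and those of ASXL1 lie 120 and 118 bases before 2 different start sites. The windows of YY1, OGT, FOXK2 and KDM1B do not hold these letters. The ETS letters CCGGAAG, which directly follow the first ASXL1 match without overlapping it, were in windows of ASXL1 and ASXL2, 2 of 8 genes against 12.2% of all. The forkhead letters GTAAACA were in 0 of the 8 genes, against 4.19% of all. A match is a run of letters and not a measured site.

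HCFC1 is the host cell factor that anchors many of these proteins, and HCFC2 is its smaller relative. HCFC1 had no call against shControl over 3 probe sets. Its brightest, 202474_s_at, stood at 8.61, 8.65 and 8.71 with shBAP1 #1 and at 8.44, 8.47 and 8.39 with shBAP1 #2, against 8.56, 8.48 and 8.47 in shControl. The shBAP1 #1 arrays were the highest and those of shBAP1 #2 the lowest, and the changes of 0.15 (95% interval 0.01 to 0.29, limma adjusted p = 0.14) and -0.07 (95% interval -0.21 to 0.07) were not called. HCFC2 was lower with shBAP1 #2 by 1 of its 2 probe sets. That probe set, 219484_at, stood at 7.06, 7.21 and 7.05 with shBAP1 #1 and at 6.65, 6.66 and 6.89 with shBAP1 #2, against 7.33, 7.12 and 7.42 in shControl. All shBAP1 #2 arrays lay below the rest, and it fell by 0.56 ± 0.10 (limma adjusted p = 0.00186), to 68.0% of shControl, beside a change of -0.19 with shBAP1 #1 (limma adjusted p = 0.273). The other 2 HCFC1 probe sets had changes between -0.23 and 0.10, and the dim HCFC2 235264_at had -0.18 and -0.08.

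KDM1B, a histone lysine demethylase related to KDM1A, had the largest change of any partner, and with shBAP1 #2 alone. Its probe set 227021_at stood at 5.57, 5.92 and 6.06 with shBAP1 #1 and at 7.56, 7.40 and 7.82 with shBAP1 #2, against 6.08, 6.01 and 6.34 in shControl. The shBAP1 #2 arrays were all above the others, and shBAP1 #1 overlapped shControl. It was 2.74-fold higher with shBAP1 #2 (change 1.45 ± 0.15, limma adjusted p = 6.68e-05), with a change of -0.30 with shBAP1 #1 (limma adjusted p = 0.232). The dim probe set 1553150_at stood at 3.42, 3.34 and 3.39 with shBAP1 #1 and at 4.16, 4.24 and 4.28 with shBAP1 #2, against 3.58, 3.22 and 3.49 in shControl. It showed the same split, with a change of 0.80 with shBAP1 #2 (limma adjusted p = 0.000143) and -0.04 with shBAP1 #1.

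The hairpins were set against each other directly, as shBAP1 #2 minus shBAP1 #1. Of the 43 probe sets, 8 were higher with shBAP1 #2 and 9 lower, where 13.0% of all probe sets on the array were higher and 12.4% lower; BAP1 was among those not called. KDM1B differed most, at 1.75 ± 0.15 for 227021_at, which is 3.36-fold (limma adjusted p = 1.49e-05), and at 0.84 for 1553150_at. YY1 differed by 0.39 and 0.61 for 201901_s_at and 224711_at (limma adjusted p = 0.000886 and 0.00258), and ASXL2 by -0.51 and -0.77 for 218659_at and 226251_at (limma adjusted p = 0.000374 and 0.000515). FOXK2 probe sets went both ways, with -0.36, -0.43 and -0.53 for 226224_at, 223408_s_at and 223409_at and 0.51 for 242938_s_at. ASXL1 242439_s_at differed by 0.49 (limma adjusted p = 0.00561), without a call against shControl.

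Of the 17 calls between the hairpins, 6 were lost when single arrays were left out. HCFC1 202474_s_at (-0.23) lost its call without shBAP1 #1 replicate 2 or 3 or shBAP1 #2 replicate 3 (limma adjusted p = 0.0537 to 0.0771), and HCFC2 219484_at (-0.37) without shBAP1 #1 replicate 2 or shBAP1 #2 replicate 1 or 2 (limma adjusted p = 0.054 to 0.0676). ASXL2 1555266_a_at (-0.41) lost it without replicate 1 or 2 of either hairpin (limma adjusted p = 0.0676 to 0.126), and ASXL2 237095_at (0.34) without shBAP1 #1 replicate 1 or shBAP1 #2 replicate 2 (limma adjusted p = 0.06 and 0.063). ASXL1 244519_at (0.26) lost it without shBAP1 #1 replicate 2 or 3 or any 1 shBAP1 #2 array (limma adjusted p = 0.0548 to 0.0903). OGT 220594_at (-0.26) kept it only without shBAP1 #1 replicate 1 or shBAP1 #2 replicate 2, with limma adjusted p of 0.0519 to 0.155 in the other 7 fits. The differences of KDM1B and those given for YY1 and FOXK2 kept their calls in all 9 such fits.

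**Figure D3:**
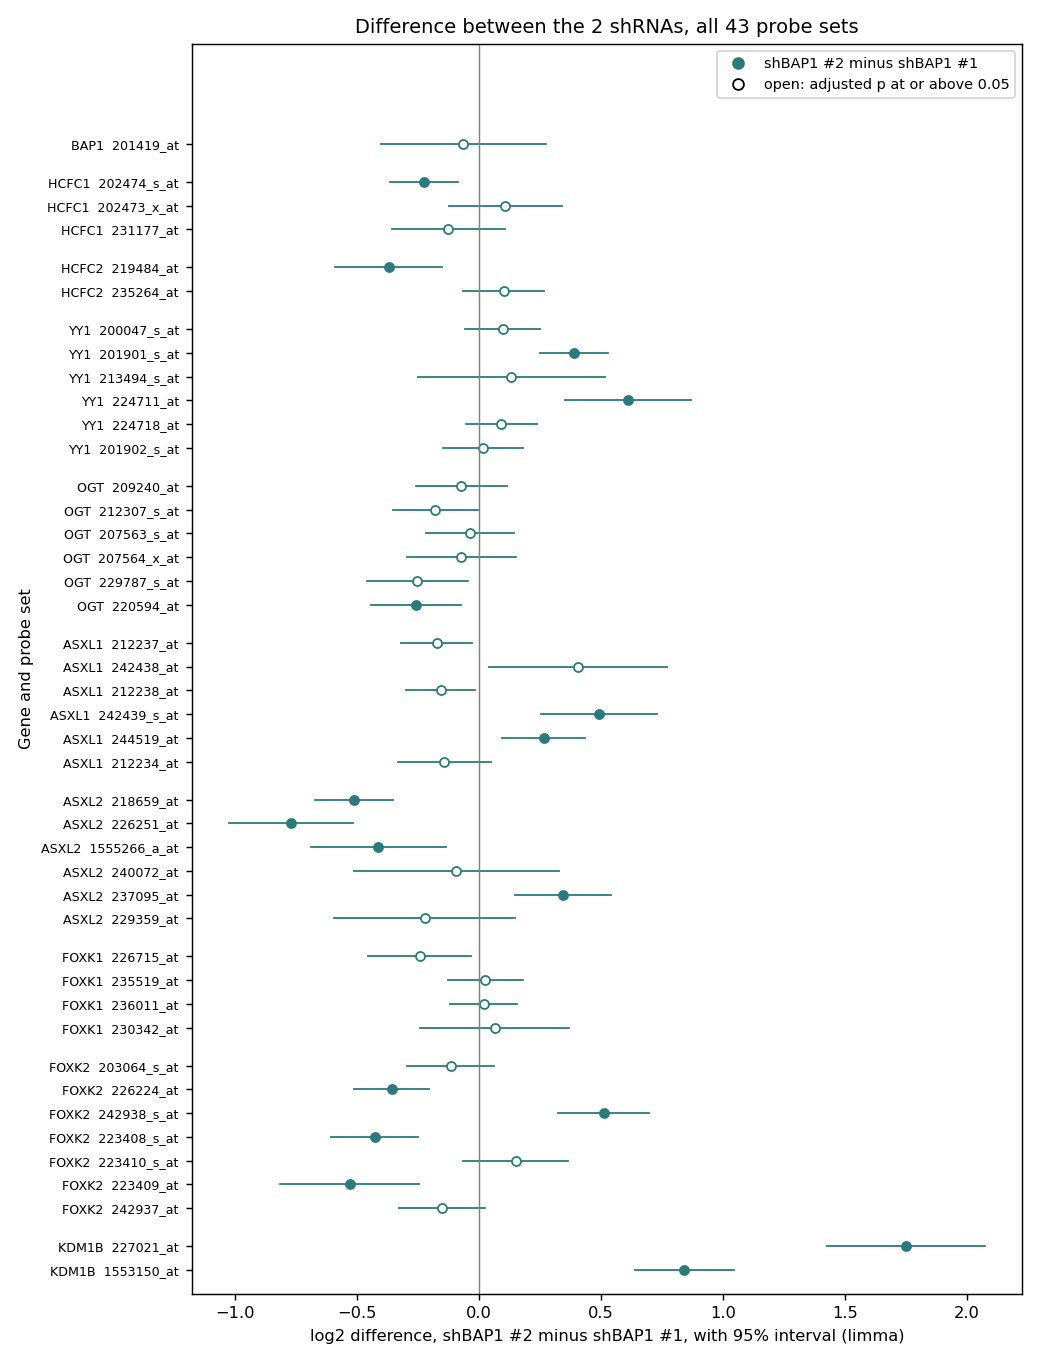
Log2 difference, shBAP1 #2 minus shBAP1 #1 (x axis), of each of the 43 probe sets with its 95% interval; open points had a limma adjusted p at or above 0.05. The BAP1 interval spans 0, KDM1B reaches 1.75, and FOXK2 and ASXL2 probe sets lie on both sides of 0.

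Taking the mean of a gene's probe sets, with p-values adjusted over 19776 genes, OGT had changes of 0.38 and 0.23 with shBAP1 #1 and shBAP1 #2 (limma adjusted p = 0.0012 and 0.0134) and FOXK2 0.39 and 0.25 (limma adjusted p = 0.00041 and 0.0037). YY1 was lower with shBAP1 #1 at -0.29 (limma adjusted p = 0.0052), with -0.07 under shBAP1 #2. KDM1B at 1.13, ASXL2 at -0.44 and HCFC2 at -0.32 were called with shBAP1 #2 (limma adjusted p = 2.29e-05, 0.00098 and 0.0067), beside -0.17, -0.16 and -0.18 with shBAP1 #1. ASXL1, FOXK1 and HCFC1 were not called on this reading.

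Other genes around the complex were read in 6 lists, each gene by its brightest probe set. Their counts stand beside the shares of all probe sets called. These were 8.98% higher and 8.76% lower with shBAP1 #1 and 12.6% higher and 11.5% lower with shBAP1 #2. The shares cover dim and bright probe sets alike, so the lists and the shares are unlike in brightness. Of 8 further BAP1 partners, 1 was higher and 2 lower with shBAP1 #1, and 0 were higher and 5 lower with shBAP1 #2 (medians -0.11 and -0.48). BRCA1, the ubiquitin ligase after which BAP1 was named, stood at 8.21, 7.97 and 8.50 with shBAP1 #1 and at 8.57, 7.65 and 7.99 with shBAP1 #2, against 9.38, 9.09 and 9.35 in shControl. All its shBAP1 arrays lay below shControl, and it fell by 1.05 and 1.20 (limma adjusted p = 0.00523 and 0.00171). HAT1, a histone acetyltransferase, fell by 0.47 and 0.57 (limma adjusted p = 0.00194 and 0.000416).

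Of 23 measured cofactors and DNA-binding factors that bind host cell factor, 0 were higher and 6 lower with shBAP1 #1, and 1 was higher and 6 lower with shBAP1 #2 (medians -0.13 and -0.13), where 8.76% and 11.5% of all probe sets were lower. ASH2L, a core subunit of histone H3 methyltransferases, fell by 0.74 and 0.67 (limma adjusted p = 0.00195 and 0.00272), and E2F1, a factor of the G1 to S transition, by 0.45 and 0.70 (limma adjusted p = 0.00764 and 0.000426). GABPA, an ETS factor, had changes of -0.30 and -0.61 (limma adjusted p = 0.0393 and 0.000529); the first call was lost without shBAP1 #1 replicate 1 or 3 or shControl replicate 1 or 3 (-0.28 to -0.26, limma adjusted p = 0.116 to 0.133). Its second probe set was not called with either hairpin.

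Of 11 measured histone H2A ubiquitin ligases and deubiquitinases, 2 were higher and 2 lower with shBAP1 #1 and 3 higher and 2 lower with shBAP1 #2 (medians 0.02 and 0.17). Array-wide shares were 8.98% higher and 8.76% lower with shBAP1 #1 and 12.6% higher and 11.5% lower with shBAP1 #2. With so few genes in the list, nothing is read from these counts. PCGF5, a Polycomb ring finger protein, stood at 7.70, 7.92 and 7.90 with shBAP1 #1 and at 8.84, 8.65 and 8.74 with shBAP1 #2, against 9.36, 9.13 and 9.53 in shControl. Its groups were separate and it fell by 1.50 and 0.60 (limma adjusted p = 1.8e-05 and 0.00205). Of its other 4 probe sets, 235331_x_at fell by 1.36 and 0.92 (limma adjusted p = 2.6e-05 and 0.000153), 226326_at fell by 0.66 with shBAP1 #1 (limma adjusted p = 0.00537), 227935_s_at was higher by 0.43 with shBAP1 #1 (limma adjusted p = 0.00942), and 229996_s_at was not called. USP22, the deubiquitinase of the SAGA complex, was higher by 0.63 and 0.74 (limma adjusted p = 8.3e-05 and 3e-05), while its dim probe set 216957_at fell by 0.73 and 1.15. PCGF3 was higher by 0.41 and 0.41 (limma adjusted p = 0.00155 and 0.00111), and of its other 4 probe sets 1 was called, higher with shBAP1 #2.

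The other 3 lists held 0 or 1 call in each direction, too few to set apart from the array-wide shares of 8.98% higher and 8.76% lower with shBAP1 #1 and 12.6% higher and 11.5% lower with shBAP1 #2. Among them, 4 genes of the O-GlcNAc pathway had 0 higher and 1 lower with shBAP1 #1 and 1 higher and 0 lower with shBAP1 #2 (medians -0.22 and 0.02). UAP1, which makes the sugar donor of OGT, had -0.35 and -0.15 (limma adjusted p = 0.0621 and 0.435). Among 7 YY1 relatives and partners, none was called with shBAP1 #1, and 1 was higher and 1 lower with shBAP1 #2 (medians 0.02 and 0.06). RYBP, a YY1 and Polycomb partner, had changes of 0.18 and 0.26 (limma adjusted p = 0.141 and 0.0274), the second lost without shBAP1 #2 replicate 2 or 3 or shControl replicate 1 or 2 (0.24 to 0.28, limma adjusted p = 0.057 to 0.1). Its probe set 201844_s_at was higher with each hairpin, by 0.26 and 0.32 (limma adjusted p = 0.0303 and 0.00806), and its other 2 were not called. Of 5 genes of the lysine demethylase 1 group, 1 was higher and 1 lower with shBAP1 #1 and 0 higher and 1 lower with shBAP1 #2 (medians 0.02 and 0.05). KDM1A, the relative of KDM1B, fell by 0.75 with shBAP1 #1 (limma adjusted p = 0.000433) and had -0.13 with shBAP1 #2 (limma adjusted p = 0.439).

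**Figure D4:**
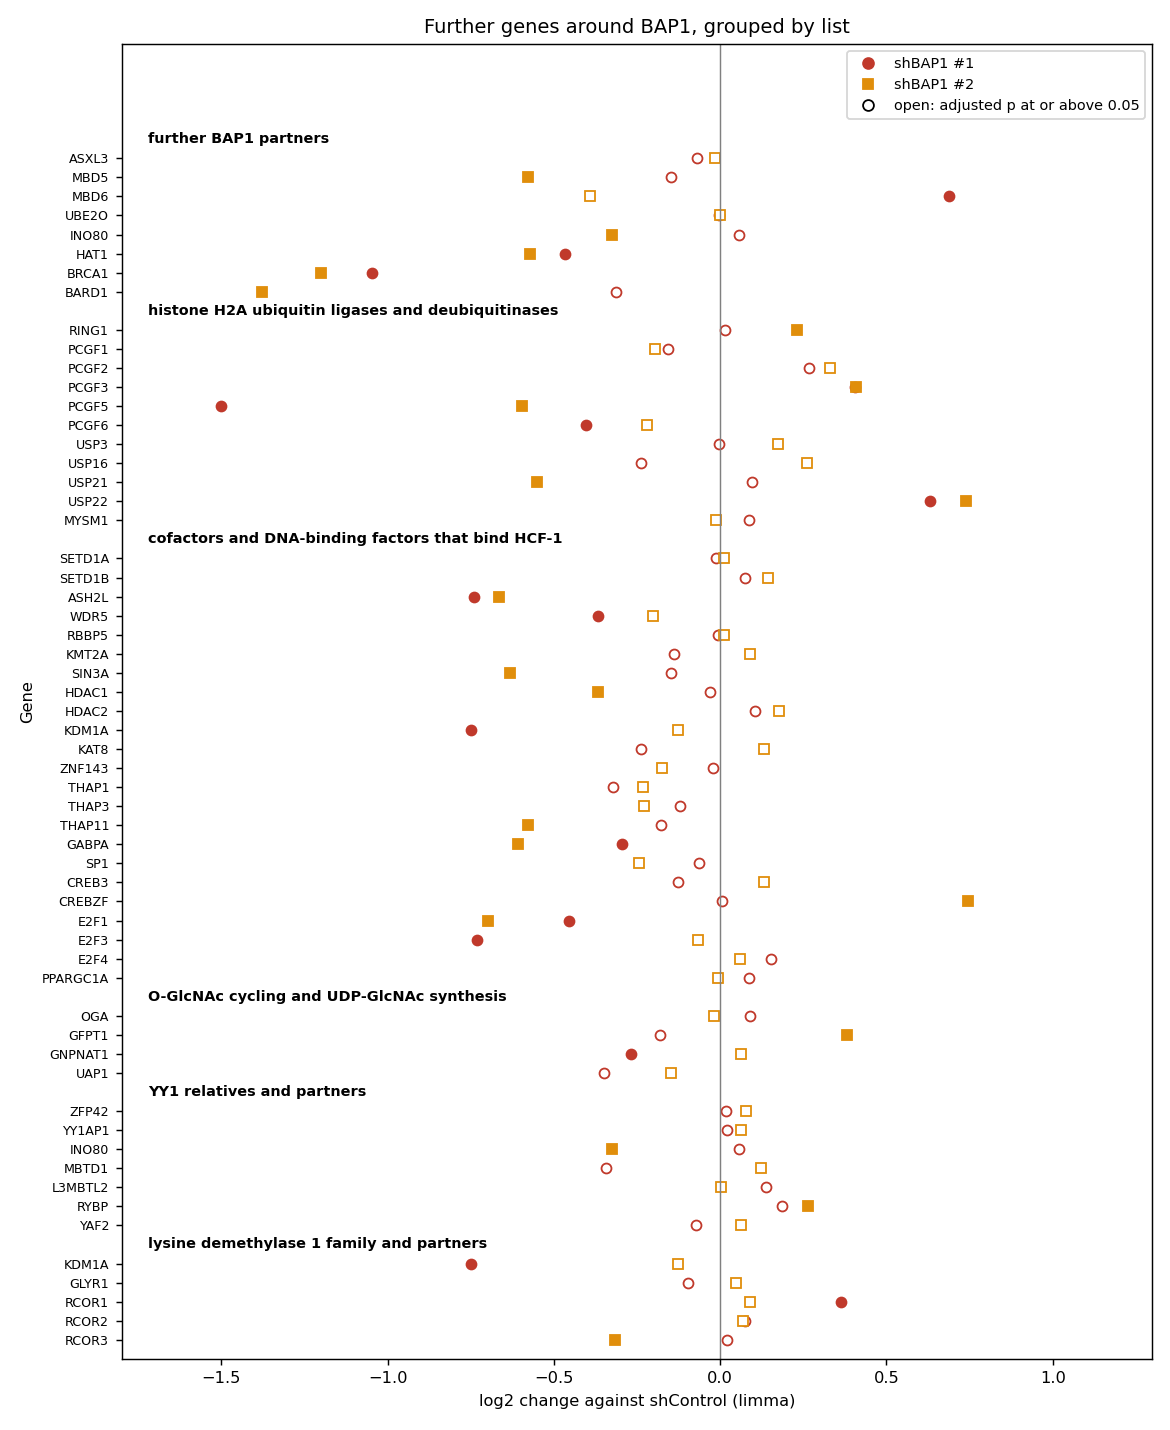
Log2 change against shControl (x axis) of each gene of the 6 lists (rows, brightest probe set of each), circles for shBAP1 #1 and squares for shBAP1 #2; open marks had a limma adjusted p at or above 0.05. BRCA1, HAT1, ASH2L and E2F1 lie below 0 with both hairpins, and KDM1A lies at -0.75 with shBAP1 #1 beside -0.13 with shBAP1 #2.

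The genes whose values most resembled BAP1 over the 9 arrays were found among 7438 probe sets that had a single symbol, a mean of at least 5.44 and an SD of at least 0.3. Pearson's r was 0.993 for CSNK1A1, 0.992 for INTS6, 0.989 for WTAP, 0.989 for STRN and 0.988 for APTX. Each gene was read by its probe set with the highest r, and values of other probe sets are not given. That of CSNK1A1, 213860_x_at, has a suffix for probes that other genes may share. The 9 arrays fall into shBAP1 and shControl arrays, a split that all these points share, and no p is given. CSNK1A1, a casein kinase, had changes of -0.90 and -0.94, and INTS6, a subunit of the Integrator complex, had -0.84 and -0.94. WTAP, a subunit of the RNA methyltransferase complex, had -0.77 and -0.71, STRN -0.84 and -0.84, and APTX, a DNA repair protein, -0.83 and -0.91.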

How the data were processed

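RNA from 9 U2OS samples was hybridised to an Affymetrix human array as biotin-labelled cRNA. The deposited table holds log2 values per probe set that the authors made with RMA (per the submitters' processing notes); the version is not given in the sources used here, and the log2 scale was read from the values. No renormalisation was done. The number of arrays limits the precision. limma 3.58.1 (R 4.3.3) was fitted per probe set over all 9 arrays in 3 groups, with no covariate and 6 residual degrees of freedom, and p-values were adjusted by Benjamini-Hochberg over 54675 probe sets. The fit was tested on simulated data. Of the probe sets, 41097 had 1 gene symbol in the platform annotation, 1801 had several and 11777 were not listed. Suffixes _s_at, _x_at and _a_at mark probes that other transcripts or genes may share. No 2 arrays held identical values.

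The members, the lists and the tests were chosen with earlier results of these data known. Every member probe set was read. From each list, up to 3 genes called in the same direction with both hairpins were named, those with the largest smaller change, and otherwise the gene with the smallest p for the mean of both hairpins. The 5 genes most like BAP1 were named by Pearson's r. There were 18 alternative settings, which changed normalisation, filters, the prior, weights, probe set choice, the groups fitted, a replicate block and each array left out.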

Additional observations from a re-analysis of the deposited data

Results flagged for a closer look

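For 17 of the 43 probe sets of the members, shBAP1 #2 and shBAP1 #1 differed by the limma contrast between them (adjusted p below 0.05). Of all probe sets on the array, 13.0% were higher and 12.4% lower in this contrast, so such differences were common beyond the members. Values are given here as shBAP1 #2 minus shBAP1 #1 on the log2 scale. Higher with shBAP1 #2 were KDM1B 227021_at (1.75) and 1553150_at (0.84), YY1 224711_at (0.61) and 201901_s_at (0.39), FOXK2 242938_s_at (0.51), ASXL1 242439_s_at (0.49) and 244519_at (0.26), and ASXL2 237095_at (0.34). Lower with shBAP1 #2 were ASXL2 226251_at (-0.77), 218659_at (-0.51) and 1555266_a_at (-0.41), FOXK2 223409_at (-0.53), 223408_s_at (-0.43) and 226224_at (-0.36), HCFC2 219484_at (-0.37), OGT 220594_at (-0.26) and HCFC1 202474_s_at (-0.23). FOXK2 and ASXL2 had called differences in both directions.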

How the results depend on the processing

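The fall of BAP1 kept its call with each hairpin in every setting run, between -1.63 and -1.40 with shBAP1 #1 and between -1.75 and -1.47 with shBAP1 #2. Counts of member probe sets called (13 with shBAP1 #1, 16 with shBAP1 #2, 20 for the mean of both, 17 for shBAP1 #2 against shBAP1 #1) fell where fewer features were read. They were 7, 10, 13 and 10 without the shared-probe suffixes, 3, 5, 6 and 4 with the highest probe set per gene, and 4, 6, 7 and 3 with the mean per gene. The settings per gene read 1 value for each of the 10 genes. Leaving out single arrays gave 10 to 14, 12 to 16, 13 to 19 and 13 to 17. Shares of all features called are not given for the alternative settings. Their counts are therefore not read as a result about the members. Of the calls, 10, 12, 11 and 11 held in every setting that tested them, and no called change reversed. The labels do not say that the replicate numbers mark pairs, so no pairing was used in the main fit. Same-numbered arrays of different groups had deviation correlations of -0.17 to 0.30, 4 of 9 above 0.1. For arrays of different numbers they were -0.28 to 0.19, 4 of 18 above 0.1. These values do not settle whether the arrays were paired. With the replicate block the counts were 14, 16, 19 and 18, and the calls with shBAP1 #1 of YY1 200047_s_at (-0.22) and GABPA 210188_at (-0.30) were lost (limma adjusted p = 0.0719 and 0.0583).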
